A study of Arabidopsis thaliana with 12 samples.

Results

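*DOT3* (*DEFECTIVELY ORGANIZED TRIBUTARIES 3*, AT5G10250) and 7 genes of the same protein family were followed in RNAseq of *A. thaliana* shoots. The set was defined by locus identifier: *DOT3*, *NPH3* (AT5G64330), *RPT2* (AT2G30520) and *NPY1* to *NPY5* (AT4G31820, AT2G14820, AT5G67440, AT2G23050 and AT4G37590), 8 of the 38618 loci in the count table. *DOT3* was taken up because of its low counts after steroid treatment in these same libraries, so its values are given below as a description, without a test. The other 7 genes were added as relatives.

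The RNAseq was made to ask whether progesterone (PO) and testosterone (TO) disturb the brassinosteroid balance of the plant. Both are steroids at the same dose here, and they differ at the D ring, where PO carries an acetyl group and TO a hydroxyl group. All plants were wild-type Col-0 seedlings, moved to PNM medium when 7 days old and left there for 2 days. The growth description in the sample labels, however, gives the seedlings as 10 days old. They then received 10 µM PO, 10 µM TO or the mock treatment, with 0.12% DMSO stated as the solvent for PO and as the mock, and leaves were frozen after 1 h. Each of the 3 groups (DMSO, PO and TO) had 4 libraries, which the study calls biologically independent replicates.

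The NPH3/RPT2-like (NRL) proteins are plant-specific proteins that carry a BTB domain, a protein interaction domain typical of substrate adaptors of CUL3 ubiquitin ligases, and an NPH3 domain. *NPH3* and *RPT2* act directly downstream of the phototropins, the blue light receptors of phototropism, leaf positioning and leaf flattening. The *NPY* genes act with the kinase PINOID and the PIN auxin exporters in organ formation at the shoot meristem and in root gravitropism. *DOT3* mutants have been described with poor shoot and primary root growth and with parallel, poorly connected veins in juvenile leaves.

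The 12 libraries held between 41036335 and 63445014 counts, and 23203 loci had enough counts to be tested. Levels are given in CPM, for which each count was divided by its library's total after TMM scaling. The 4 leaf markers summed to between 15342 and 21642 CPM per library, against 6.76 to 9.79 CPM for 7 root markers, of which *SHR* alone gave 5.68 to 7.29 CPM. The summed root markers were at 8.29 to 9.79 CPM in TO and at 7.02 to 8.15 CPM in DMSO without overlap. *SHR* alone was at 6.79 to 7.29 CPM in TO and at 5.68 to 6.32 CPM in DMSO, and 2.9% of all tested loci were higher without overlap. The markers did not agree: of the 4 tested, 3 were higher in TO and 1 lower, *WOX5* (log2 fold change -0.60). Their part in the TO results was not tested. The summed vascular and shoot meristem markers overlapped between all 3 groups. In a principal component analysis the library DMSO 1 lay farthest out on the first axis and TO 2 and DMSO 2 at opposite ends of the second. In whole leaves, fewer cells of a type and less RNA per cell cannot be told apart.

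*DOT3* lies on chromosome 5 (chr5:3216881-3219436, minus strand, TAIR10.1) and has 6 exons. RefSeq lists 2 transcripts that encode proteins of 622 and 607 residues, and no other locus overlaps the gene. It sits head to head with *RABH1e* (AT5G10260), a small GTPase gene, with 240 bases between both starts. On the other side, *ASN3* (AT5G10240), an asparagine synthetase gene on the same strand, starts 329 bases beyond the end of *DOT3*. Of the 32 other family proteins, NPH3 was the closest to DOT3, with 47.2% identity over 576 aligned residues. The next was AT5G13600 with 40.2%, and the lowest AT3G22104 with 29.4%. Within the NPY group, NPY4 and NPY5 shared 71.5% of the aligned residues, NPY3 and NPY5 59.9%, and NPY1 shared between 48.7% and 52.0% with the other 4. RPT2 and NPH3 shared 40.6%.

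The stretch before the annotated start was read from the RefSeq genome (TAIR10.1) for *DOT3*, *NPH3* and *NPY5*. *DOT3* had been taken up for its low counts, and *NPH3* was its closest relative by protein. *NPY5* was the only gene of the 8 with a match to a brassinosteroid response element. Sequences run 5′ to 3′ on the strand of the gene, and capitals mark motif matches. That of *DOT3* (chr5:3219437-3219676, minus strand) holds the 240 bases up to *RABH1e*. Those of *NPH3* (chr5:25726876-25727125, plus strand) and *NPY5* (chr4:17666737-17666986, minus strand) hold 250 bases.
DOT3: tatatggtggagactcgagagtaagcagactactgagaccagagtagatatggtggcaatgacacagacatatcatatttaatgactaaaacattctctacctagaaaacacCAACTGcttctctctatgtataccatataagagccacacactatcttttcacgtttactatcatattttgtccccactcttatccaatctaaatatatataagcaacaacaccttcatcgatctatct
NPH3: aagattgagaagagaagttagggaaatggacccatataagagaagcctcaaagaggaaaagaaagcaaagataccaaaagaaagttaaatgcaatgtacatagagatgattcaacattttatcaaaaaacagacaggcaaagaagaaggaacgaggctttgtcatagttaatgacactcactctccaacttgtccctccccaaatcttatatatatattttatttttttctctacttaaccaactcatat
NPY5: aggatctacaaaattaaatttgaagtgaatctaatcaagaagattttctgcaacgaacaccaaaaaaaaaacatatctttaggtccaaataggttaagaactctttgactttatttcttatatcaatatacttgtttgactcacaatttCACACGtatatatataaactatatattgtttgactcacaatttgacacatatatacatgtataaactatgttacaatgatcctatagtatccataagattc

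The motifs searched on both strands were TGTCTC (auxin response element), CACGTG (G-box, itself an instance of CANNTG), TGACG (as-1 core), CGTGCG and CGTGTG (brassinosteroid response element and variant) and CANNTG (E-box). *DOT3* held 1 E-box match, CAACTG at position -128 from the start, and no match to the other 5 motifs. An E-box match was present before 55.3% of 27438 genes with windows of 250 bases. *NPH3*, *RPT2* and *NPY3* held no match to any of the 6 motifs. *NPY5* held CGTGTG on the opposite strand, which reads CACACG at position -101, a match present before 5.37% of genes. *NPY1* and *NPY4* had 1 E-box match each and *NPY2* had 2. No gene of the 8 held TGTCTC (10.9% of genes), CACGTG (6.49%), TGACG (18.6%) or CGTGCG (1.57%).

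To see which of the genes the leaves expressed at all, levels in the DMSO libraries were divided by exon length, which gives CPM per kb. The family had 33 loci, and the 8 genes spread over nearly the whole range. *RPT2*, whose product takes part in phototropin signalling, was the highest of all 33 with 44.3 ± 5.12 CPM per kb (SD, n = 4). *NPY5* followed with 22.7 ± 2.58, *NPH3* with 18.1 ± 1.39, *NPY1* with 16.3 ± 1.37 and *NPY3* with 9.52 ± 0.937 CPM per kb. *DOT3* came far below at 1.03 ± 0.270 CPM per kb, rank 21 of 33. *NPY4* was at 0.134 ± 0.0573 and *NPY2* at 0.0476 ± 0.0402 CPM per kb.

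In that order, *NPH3* and *NPY1* overlapped between libraries (16.9 to 20.04 against 14.8 to 17.9 CPM per kb), as did *NPY4* and *NPY2*. The other neighbours among the 8 did not overlap, with *NPY5* (20.3 to 26.3) only just above *NPH3*. Per kb of coding sequence *NPY1* moved above *NPH3* (34.1 against 23.8 CPM per kb), and *DOT3* took rank 23. *AT3G03510* and *AT5G48130* had no count in any DMSO library.

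**Figure D1:**
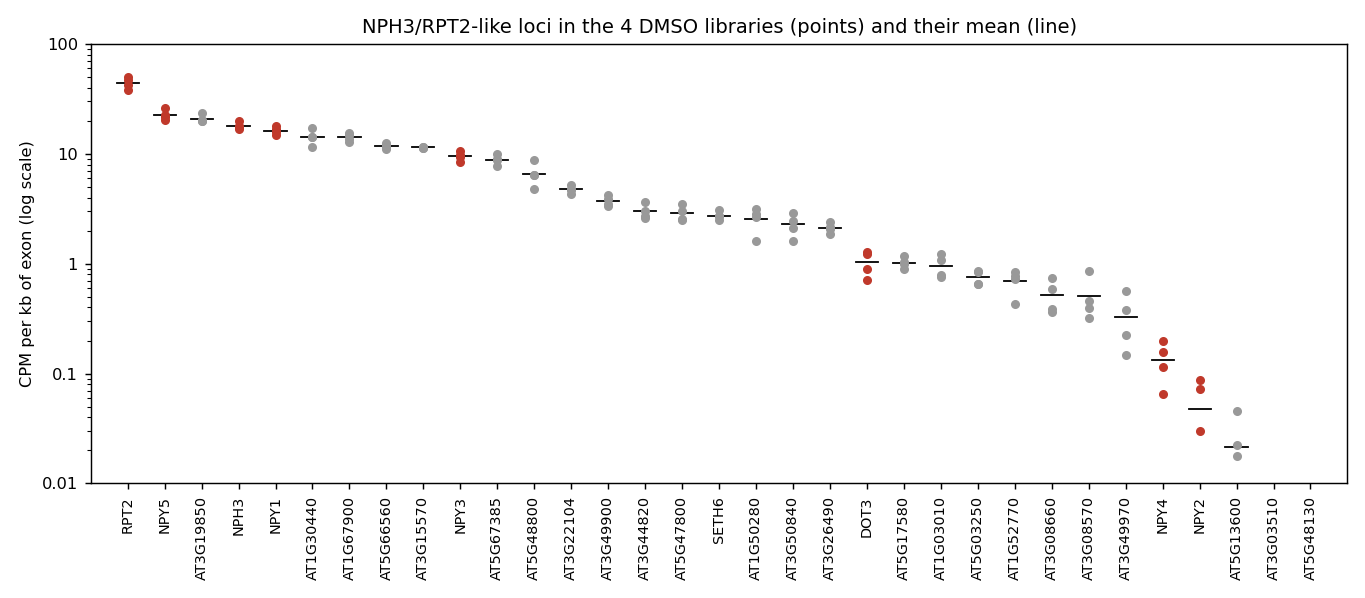
Level of the 33 NPH3/RPT2-like loci in the DMSO libraries, in CPM per kb of exon on a log axis. Points are the 4 libraries and lines their mean, red marks the 8 genes of the set, and 10 library values at 0 cannot be drawn. *RPT2* stood highest at 44.3 and *DOT3* at rank 21 with 1.03 CPM per kb.

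By the sample labels, *DOT3* was lower in every PO and every TO library than in every DMSO library. Of all tested loci 2.72% were lower without overlap in PO and 2.48% in TO. It had 118, 126, 72 and 134 counts in DMSO 1 to 4, which gave 1.88, 2.54, 1.47 and 2.67 CPM. PO 1 to 4 held 38, 33, 36 and 30 counts, or 0.762, 0.517, 0.594 and 0.688 CPM. TO 1 to 4 held 58, 70, 46 and 31 counts, or 1.12, 1.38, 1.109 and 0.599 CPM. TO 4 lay within the range of the PO libraries and the other TO libraries above it, and no steroid library reached the lowest DMSO library. The means were 2.14 ± 0.563 CPM in DMSO, 0.640 ± 0.107 CPM in PO and 1.05 ± 0.327 CPM in TO (SD, n = 4 each).

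The fitted log2 fold change (logFC) of *DOT3* was -1.74 (SE 0.28) in PO and -1.02 (SE 0.28) in TO, which corresponds to 0.299 and 0.492 times the DMSO level. Both comparisons share the 4 DMSO libraries. Every direction given here follows the treatment that the sample labels assign to each library. The study's own listing gives *DOT3* as enhanced, at about the same size and with the opposite sign. It gives *AP3* as reduced, where DESeq2 on these counts gave a logFC of 4.16 in PO and 4.30 in TO. *AP3* had 0 counts in DMSO and few in PO and TO. The other directions given here may be opposite to the study's in the same way. The counts hold no independent check of which libraries received steroid. Of all 23203 tested loci, 47 (0.203%) had a logFC as low or lower in PO and 193 (0.832%) in TO. This place followed from the choice of *DOT3* for its low counts, so nothing is read from it. Leaving out each library in turn kept the logFC of *DOT3* between -1.89 and -1.62 in PO and between -1.18 and -0.83 in TO. In the direct contrast PO was lower than TO by a logFC of -0.72 (SE 0.29), with overlapping libraries because TO 4 lay inside the PO range. Neither neighbour showed a like difference. *RABH1e* had a logFC of -0.08 (SE 0.23) in PO and 0.19 (SE 0.22) in TO, and *ASN3* 0.03 (SE 0.11) and 0.16 (SE 0.11).

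**Figure D2:**
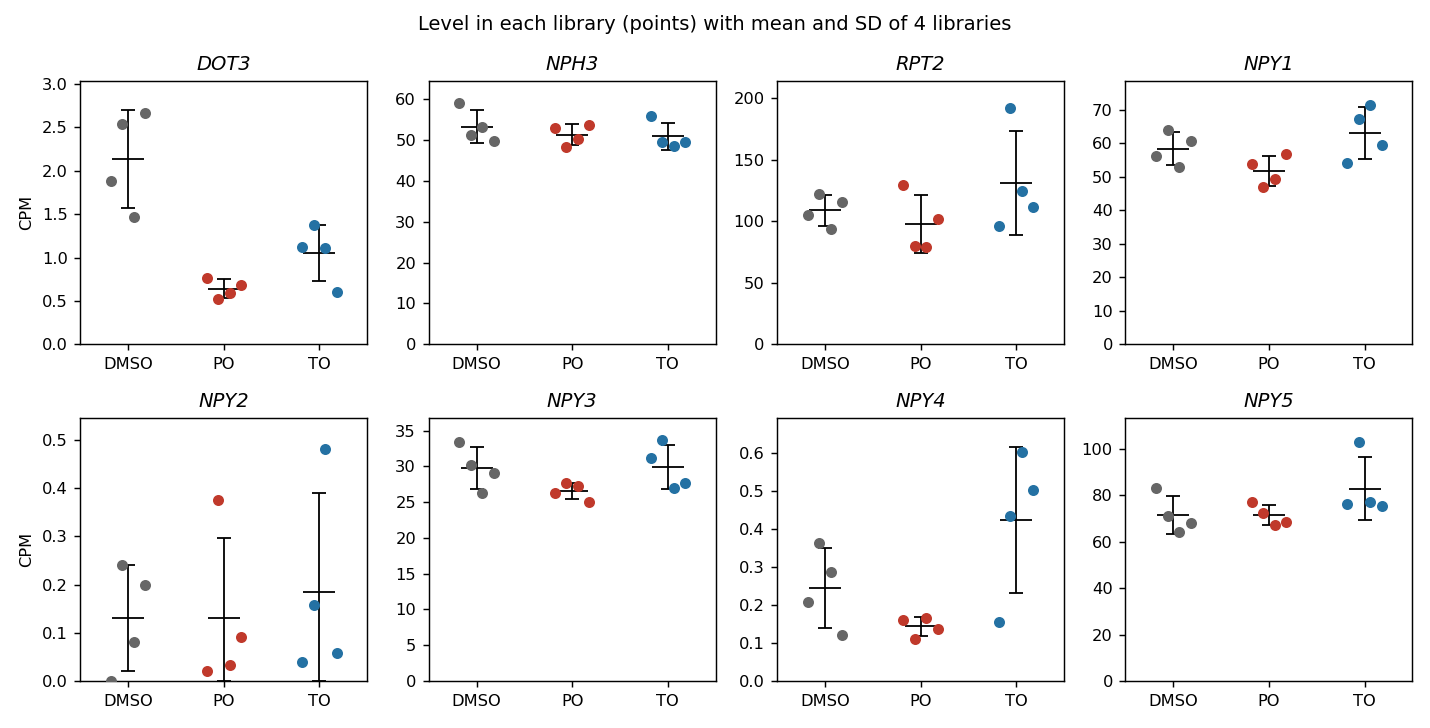
Level of the 8 genes in each library in CPM (points), with the mean and SD of the 4 libraries of DMSO, PO and TO. Each panel has its own axis from 0. *DOT3*, taken up for its low counts in these libraries, is the only one of the 8 whose PO and TO points all lie below its DMSO points.

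*NPH3*, which links phototropin 1 to phototropic bending, stayed close to its DMSO level. DMSO 1 to 4 were at 59.1, 51.3, 53.2 and 49.7 CPM, PO 1 to 4 at 52.9, 48.3, 50.3 and 53.8 CPM, and TO 1 to 4 at 55.9, 49.6, 48.6 and 49.6 CPM. The groups overlapped throughout. The logFC was -0.06 in PO (95% interval -0.22 to 0.11, adjusted p = 0.807 by the edgeR quasi-likelihood test) and -0.07 in TO (-0.23 to 0.10, adjusted p = 0.857). Both intervals lay above the fitted values of *DOT3*, which was chosen for its low counts, so nothing is read from this. PO against TO gave 0.01 (-0.16 to 0.18, adjusted p = 0.978).

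*RPT2*, which forms complexes with NPH3 and phototropin 1 and is itself induced by light, varied more between libraries. It was at 105.2, 122.4, 93.4 and 115.3 CPM in DMSO 1 to 4, at 129.3, 80.1, 78.9 and 101.5 CPM in PO 1 to 4 and at 96.2, 192.2, 124.9 and 111.4 CPM in TO 1 to 4. PO 1 was the highest PO library and TO 2 the highest of all 12. The logFC was -0.16 in PO (-0.60 to 0.27, adjusted p = 0.771) and 0.27 in TO (-0.17 to 0.70, adjusted p = 0.749), and the latter was 0.02 without TO 2. PO against TO gave -0.43 (-0.86 to 0.00, unadjusted p = 0.0517, adjusted p = 0.649, all by edgeR).

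Of the 5 *NPY* genes, 3 were well expressed and showed no difference that passed the test. *NPY1* (also *ENHANCER OF PINOID*), whose loss together with PINOID abolishes cotyledons, was at 56.0, 64.1, 52.9 and 60.5 CPM in DMSO 1 to 4. It was at 53.8, 47.0, 49.3 and 56.8 CPM in PO 1 to 4 and at 54.0, 67.1, 71.5 and 59.5 CPM in TO 1 to 4. PO 2 and PO 3 were below every DMSO library, and the groups overlapped. The logFC of *NPY1* was -0.18 in PO (-0.39 to 0.04, adjusted p = 0.492) and 0.11 in TO (-0.10 to 0.33, adjusted p = 0.805) by edgeR. PO was below TO by a logFC of -0.29 (-0.50 to -0.07) with an unadjusted p of 0.0130 and an adjusted p of 0.628 (edgeR).

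*NPY3* was at 33.4, 30.3, 26.4 and 29.0 CPM in DMSO 1 to 4, at 26.3, 27.6, 27.2 and 25.0 CPM in PO 1 to 4 and at 31.2, 33.7, 27.0 and 27.7 CPM in TO 1 to 4. PO 1 and PO 4 were just below the lowest DMSO library, and the groups overlapped. Its logFC was -0.17 in PO (-0.36 to 0.03, adjusted p = 0.478) and 0.01 in TO (-0.19 to 0.20, adjusted p = 0.992) by edgeR. *NPY5*, close to *NPY4* in sequence and one of the genes whose combined loss impairs root gravitropism, was at 83.2, 71.0, 64.3 and 68.3 CPM in DMSO 1 to 4. It was at 77.1, 72.4, 67.4 and 68.7 CPM in PO 1 to 4 and at 76.1, 103.1, 77.0 and 75.5 CPM in TO 1 to 4. TO 2 stood apart from the other TO libraries, as it did for *RPT2*. The logFC of *NPY5* was -0.01 in PO (-0.25 to 0.23, adjusted p = 0.989) and 0.21 in TO (-0.03 to 0.45, adjusted p = 0.597) by edgeR, the latter 0.09 without TO 2.

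*NPY4* and *NPY2* were close to the limit of detection. *NPY4* had 13, 18, 14 and 6 counts in DMSO 1 to 4, 8, 7, 10 and 6 in PO 1 to 4 and 8, 22, 25 and 26 in TO 1 to 4. It was at 0.119 to 0.362 CPM in DMSO, at 0.1097 to 0.165 CPM in PO and at 0.155 to 0.603 CPM in TO. The 3 TO libraries with more than 20 counts were above every PO and DMSO library, and TO 1 was not. The logFC of *NPY4* was -0.76 in PO (-1.81 to 0.29, adjusted p = 0.543) and 0.79 in TO (-0.19 to 1.76, adjusted p = 0.641) by edgeR. Between both steroids the difference was -1.54 (-2.57 to -0.52), with an unadjusted p of 0.00609 and an adjusted p of 0.628 (edgeR).

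*NPY2* had 0, 12, 4 and 10 counts in DMSO 1 to 4, 1, 24, 2 and 4 in PO 1 to 4 and 2, 8, 20 and 3 in TO 1 to 4. It did not reach the count minimum and was not tested, so that 7 of the 8 genes have a test or a fit. Each group held libraries at or under 3 counts, which is 0.0470 to 0.0723 CPM at these depths, and a difference in *NPY2* was not detectable. A fit of all loci with at least 1 count (31833) gave *NPY2* a logFC of 0.05 (SE 1.02) in PO and 0.48 (SE 1.03) in TO.

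**Figure D3:**
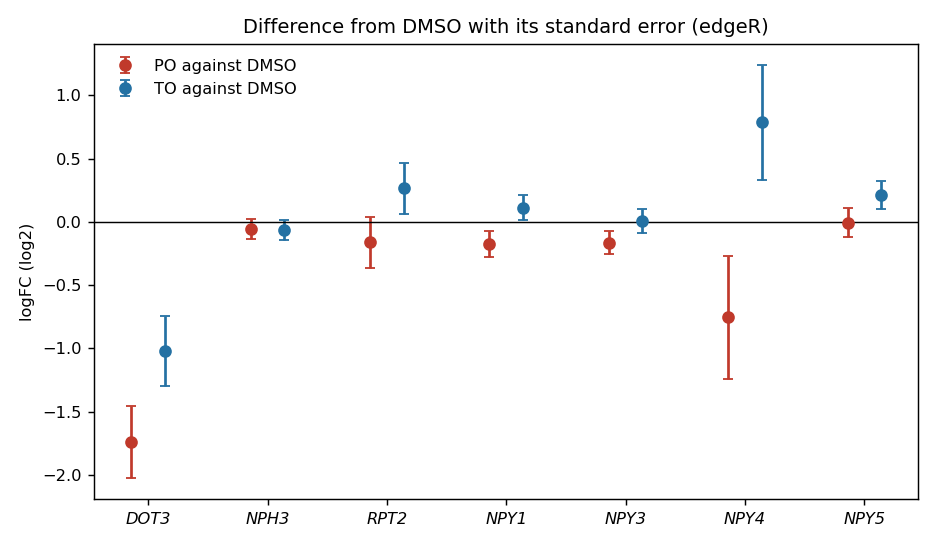
Difference from DMSO (logFC, log2 scale) of the 7 fitted genes in PO and in TO, with the standard error from edgeR. *DOT3* sits at -1.74 and -1.02, the 5 genes with higher counts between -0.18 and 0.27, and the low-count *NPY4* at -0.76 and 0.79 with wide errors.

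Across libraries of the same group some of the genes varied together and others did not. Taken as deviations from the group means over the 12 libraries, *NPY3* and *NPY5* had a Pearson correlation of 0.78, *RPT2* and *NPY1* of 0.72, and *RPT2* and *NPY5* of 0.71. Among the same well expressed genes, *NPH3* had -0.32 with *NPY1* and -0.13 with *RPT2*, and *NPY1* had -0.14 with *NPY3*. *DOT3* had 0.62 with *RPT2* and 0.59 with *NPY1*, but -0.12 with *NPH3* and -0.19 with *NPY4*. These points share library and depth, and the values are a description only.

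The rest of the NRL family was set beside the 8 genes. Of the 33 loci 29 were tested, and *NPY2*, *AT3G03510*, *AT5G13600* and *AT5G48130* were not. Leaving out *DOT3*, 22 of 28 had a logFC below 0 in PO, against 51.8% of all tested loci, with a median of -0.16 against -0.01. None of the 28 had an adjusted p under 0.05 by edgeR, where 0.168% of all loci had one, or by DESeq2, where 1.4% had one. At an unadjusted p under 0.05 there were 1 higher and 3 lower loci, where 12.1% of all loci passed. Of all loci 5.58% did not overlap between PO and DMSO in either direction, and 2.72% were lower in PO. Among the 28, groups did not overlap for 2 loci, both lower in PO. They were *AT3G26490* (logFC -0.35, SE 0.15, adjusted p = 0.365, edgeR) and *AT3G49900* (-0.38, SE 0.13, adjusted p = 0.281). *AT3G49900* overlaps an antisense RNA and another gene, so its reads may be shared.

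The highest logFC of the family in PO was that of *AT1G03010* (0.57, SE 0.22, adjusted p = 0.341, edgeR), at 2.03 to 3.29 CPM in DMSO and 2.61 to 5.31 CPM in PO. The lowest after *DOT3* was that of *AT3G49970* (-0.84, SE 0.41, adjusted p = 0.434), at 0.318 to 1.21 CPM in DMSO and 0.321 to 0.462 CPM in PO. Both overlapped between the groups. *AT5G67385*, the protein of which shared 45.0% of its aligned residues with RPT2, had the highest logFC in TO after *NPY4*. It was at 25.3 to 32.4 CPM in DMSO and at 32.7 to 40.4 CPM in TO, without overlap (logFC 0.30, SE 0.10, adjusted p = 0.293, edgeR), where 2.9% of all loci were higher without overlap. *AT5G67385* shares 340 exonic bases with *AT5G67380* on the opposite strand, so its reads may be shared too.

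In TO 16 of the 28 had a logFC above 0 and 12 below, where 49.9% of all loci were below, with a median of 0.04 against 0.00 over all loci. None had an adjusted p under 0.05 by edgeR, where 0.284% of all loci had one, or by DESeq2, where 1.16% had one. *AT5G67385* alone had an unadjusted p under 0.05, where 9.51% of all loci passed. The lowest after *DOT3* was *AT5G48800* (-0.22, SE 0.15). In PO against TO 20 of the 28 were lower in PO, against 50.4% of all loci, with a median of -0.17. None had an adjusted p under 0.05 by edgeR or DESeq2, where 0% of all loci had one by edgeR and 0.0126% by DESeq2, and 4 had an unadjusted p under 0.05, where 7.68% of all loci passed.

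**Figure D4:**
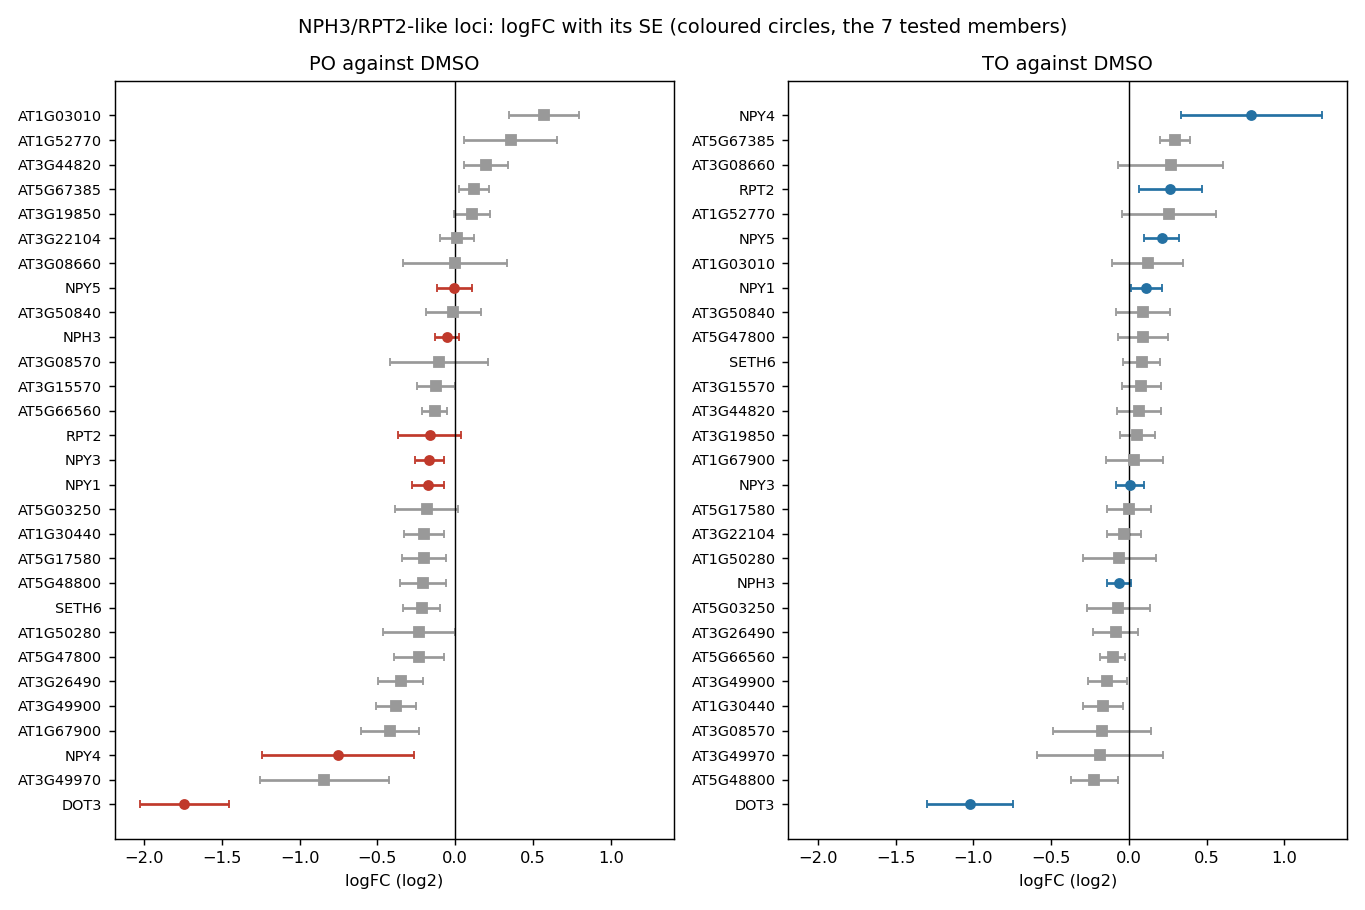
logFC against DMSO with its standard error for the 29 tested NPH3/RPT2-like loci, sorted within PO (left) and TO (right). Coloured circles are the 7 tested genes of the set and grey squares the other 22 loci. *DOT3* is lowest in both, with -1.74 and -1.02, and the highest are *AT1G03010* at 0.57 in PO and *NPY4* at 0.79 in TO.

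A list of 36 genes, called partner genes here, was examined beside the family, and 35 were tested. It held phototropin, PKS, CUL3, PIN and AGC kinase genes and other genes of auxin transport and response. It also held light-induced genes, among them *HY5*, and the other *DOT* loci. These were listed for those traits and not as genes known to act with the family proteins. In PO 22 had a logFC above 0 and 13 below, where 51.8% of all loci were below. None had an adjusted p under 0.05 by edgeR in PO (0.168% of all loci). There, 2 higher and 3 lower had an unadjusted p under 0.05 (12.1% of all loci), and DESeq2 called 1, *HY5* (1.4% of all loci). In TO 22 had a logFC above 0 and 13 below, where 49.9% of all loci were below. *HY5* alone had an adjusted p under 0.05 by edgeR in TO (0.284% of all loci). An unadjusted p under 0.05 was held by 6, all higher (9.51% of all loci in either direction). The median logFC was 0.02 in PO and 0.14 in TO.

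*HY5*, a bZIP factor that promotes light-dependent development, was at 5.38, 6.14, 5.74 and 6.57 CPM in DMSO 1 to 4. It was at 7.98, 11.3, 10.6 and 7.84 CPM in PO 1 to 4 and at 8.66, 10.08, 9.69 and 12.2 CPM in TO 1 to 4. All 8 steroid libraries were above all DMSO libraries, where 2.85% of all loci were higher without overlap in PO and 2.9% in TO. The logFC was 0.66 in PO (SE 0.14, adjusted p = 0.119) and 0.77 in TO (SE 0.15, adjusted p = 0.0438) by edgeR. In TO the adjusted p passed 0.05 under 8 of 18 other settings and ranged from 4.3e-04 to 0.129, and of the 12 fits without 1 library it held without PO 1, PO 2, PO 4 or TO 1 only. *ELIP1*, an early light-induced protein gene, had a logFC of 1.39 in TO (SE 0.49, adjusted p = 0.349). That value rested on TO 3 at 2.15 CPM, with the other TO libraries at 0.387 to 0.579 CPM and DMSO at 0.279 to 0.447 CPM.

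The phototropins, receptors upstream of NPH3, had no call by edgeR. *PHOT1* had its highest value in TO 2 (202 CPM, other TO libraries 117 to 150 CPM, DMSO 102 to 129 CPM), with a logFC of 0.41 in TO (SE 0.17, adjusted p = 0.476). *PHOT2* had a logFC of -0.33 in PO (SE 0.11, adjusted p = 0.267). Among the PKS genes, whose products bind phototropins and NPH3, *PKS1* was at 17.0 to 18.9 CPM in DMSO. It was higher without overlap in PO (19.8 to 25.3 CPM, as 2.85% of all loci) and in TO (19.3 to 22.8 CPM, as 2.9%). *PKS1* shares exonic bases with *AT2G04465*, so its reads may be shared. Its logFC was 0.29 in PO (SE 0.09, adjusted p = 0.236) and 0.26 in TO (SE 0.09, adjusted p = 0.338) by edgeR. *PKS3* had the lowest logFC of that list in PO (-0.63, SE 0.25, adjusted p = 0.351) and *PKS4* the highest in TO (0.47, SE 0.20, adjusted p = 0.454).

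*CUL3A* and *CUL3B*, the scaffolds of the ubiquitin ligases that NPH3 serves, stayed between -0.14 and 0.00 on the logFC scale. All 5 *PIN* exporter genes had a logFC above 0 in TO (median 0.25) and 2 of 5 in PO (median -0.02). Of all loci 49.9% were below 0 in TO and 51.8% in PO. None of the 5 was called by edgeR. In TO *PIN7* alone had an unadjusted p under 0.05 (logFC 0.25, SE 0.11), as had 9.51% of all loci. The highest logFC of the 5 was that of *PIN2*, with 0.49 in PO and 1.07 in TO. It was at 3.47 CPM in TO 3 and at 0.788 to 1.20 CPM in the other TO libraries, against 0.191 to 1.10 CPM in DMSO. Of the 8 AGC kinase genes, which include *PINOID*, *WAG1* had the lowest logFC in PO (-0.70, SE 0.32, adjusted p = 0.406). It was at 1.04 to 2.09 CPM in DMSO and at 0.533 to 1.16 CPM in PO, with overlap. The auxin biosynthesis gene *YUC4* had a logFC of 0.55 in PO (SE 0.34) and -0.29 in TO (SE 0.36). In PO against TO it was higher in every PO library (0.550 to 0.891 against 0.309 to 0.502 CPM), where 2.05% of all loci were, with an adjusted p of 0.632 (edgeR).

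The other loci known from *dot* mutants did not follow *DOT3*. *DOT1*, *DOT2* and *DOT4* had a logFC of -0.17, -0.08 and 0.33 in PO and of 0.26, -0.18 and 0.29 in TO, with adjusted p between 0.504 and 0.784 by edgeR. *DOT5* had no count in the DMSO and PO libraries and was not tested.

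The loci whose log2(CPM + 1) was most like that of *DOT3* over the 12 libraries were *AT3G46370*, a leucine-rich repeat protein kinase gene (Pearson r = 0.95), *AT4G19985*, an acyl-CoA N-acyltransferase gene (0.94), *AT1G15810*, a gene for an S15/NS1 RNA-binding protein (0.93), *AT1G21500* (0.92) and *ROPGEF11* (0.89). All 5 had a lower mean in PO than in TO and a lower mean in TO than in DMSO, as had *DOT3*. *AT3G46370* came nearest in size, from 5.80 CPM in DMSO to 2.69 CPM in PO and 3.10 CPM in TO. *ROPGEF11*, a guanine nucleotide exchange factor of Rop GTPases, went from 168 CPM to 109 and 143 CPM. The 5 were picked for this likeness, and the points share libraries and depth.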

How the data were processed

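RNAseq of 12 *A. thaliana* leaf libraries, 4 each of DMSO, PO and TO, was analysed. Groups and replicate numbers were taken from the sample labels, and a positive logFC means higher in the group named first. Libraries were paired-end, poly(A)-selected and strand-specific.

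Per the paper and the submitters' processing notes, the authors used bcl2fastq 2.20, FastQC 0.11.9 and fastp 0.23.2 on the reads, HISAT2 2.2.1 for alignment to the build TAIR10.1, SAMtools 1.11 for sorting and featureCounts 2.0.1 for counting. The deposited values are raw whole-number counts for each locus. How strand, overlapping loci and read pairs were counted is not given in the sources used here. Of all counts between 1 and 20, 67.8% to 72.3% per library were even, and counting error is larger than stated if mates were counted separately.

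The edgeR 4.0.16 quasi-likelihood test (R 4.3.3, TMM scaling, filterByExpr with a minimum count of 10, glmQLFit and glmQLFTest with treatment as the only term) was run with Benjamini-Hochberg adjustment over 23203 loci. The 3 groups were fitted together with 9 residual degrees of freedom, and fold changes used a prior count of 0.125. Standard errors came from the logFC and the F statistic, and 95% intervals used the total degrees of freedom of the test. DESeq2 1.42.0 was an alternative, beside other scaling, filters, a replicate block, 2-group fits and leaving out each library. The limit for absent counts was 3 counts and covers counting error only. The fit was tested on simulated data.

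The genes, the family list, the partner genes, the markers and the motifs were chosen with earlier results of these data known. The rule named all 8 genes, the family loci with the highest and lowest logFC, the partner genes that were called or had the largest logFC of their list, and the 5 loci most like *DOT3*. The family held 32 listed loci and 1 more found by its product name. Family loci with libraries that do not overlap, the neighbours of *DOT3* and further partner genes were named after their values were seen. Protein identities came from global alignments of translated RefSeq coding sequences (gap opening 10, extension 0.5). Other steps used Python and matplotlib.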

Additional observations from a re-analysis of the deposited data

Results flagged for a closer look

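Within the 24 groups of 4 libraries formed by the 8 genes and 3 treatments, 2 held a library whose distance to the nearest other library took up more of the group's range than Dixon's 95% critical value of 0.829 allows, and chance flags about 1 group in 20. *NPH3* was at 55.9 CPM in TO 1, with the other TO libraries at 48.6 to 49.6 CPM. *NPY5* was at 103.1 CPM in TO 2, with the other TO libraries at 75.5 to 77.0 CPM. Neither library was left out, and the causes were not tested.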

How the results depend on the processing

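The logFC of *DOT3* kept its direction under all 18 alternatives, from -1.89 to -1.62 in PO and from -1.18 to -0.83 in TO. None of the other 6 tested genes passed an adjusted p of 0.05 under any alternative. Their logFC kept its sign in 309 of 322 recomputed values. The 13 others came from leaving out 1 library and concerned values near 0: *NPH3* in PO (-0.085 to 0.0018) and in PO against TO (-0.013 to 0.062), *NPY5* in PO (-0.056 to 0.077) and *NPY3* in TO (-0.057 to 0.069).

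Counts of calls were less stable. Without 1 library the family had 0 to 1 calls in PO, where the 1 call of the full fit is *DOT3*, whose choice rested on these values, so that nothing is read from it. It was lost without DMSO 1, 2 or 4 or without PO 2, 3 or 4. The partner genes had 0 to 2 calls in PO (2 without PO 1) and 0 to 1 in TO. DESeq2 gave 1 partner gene in PO, where edgeR gave 0, and 1 family locus in TO, again *DOT3*, where edgeR gave 0. A fit of DMSO and TO alone gave 0 partner genes in TO. Over all loci edgeR called 39 in PO, 66 in TO and 0 in PO against TO, and DESeq2 318, 297 and 4. Without PO 1 the count in PO was 144.

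The groups share replicate numbers, but deviations of libraries with the same number correlated between -0.17 and 0.32, and 4 of 12 libraries correlated best with their own number, so the numbers were not taken as pairs. With a replicate block the family had 0 calls in PO and the partner genes 0 in TO, and over all loci 50 and 73 were called. The cause of these changes was not tested. Levels per kb of coding sequence were higher, at 61.3 for *RPT2*, 41.2 for *NPY5*, 34.1 for *NPY1*, 23.8 for *NPH3* and 17.1 for *NPY3*. Depth limited *NPY2* and *NPY4*, where single libraries held 0 to 26 counts.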
